A study of Mus musculus with 20 samples.

Results

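Id3, Scart1, Evl, Abcc3 and Khdc1a are 5 genes studied in spleens of a mouse T-cell acute lymphoblastic leukemia (T-ALL). At the survival endpoint their RNA was higher in every Acly-deleted library than in every control library. They were picked by symbol from the 26486 genes of the survival table because their knockout and control libraries did not overlap there, so their survival values are a description and carry no test. Of 16136 genes tested in that table, 324 (2.01%) had groups that did not overlap, and 196 of these (1.21% of the genes tested) were higher in knockout, the 5 members among them. All 5 members were listed in both tables and passed the filter on low values in both.

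The data were RNA sequencing of leukemic spleens, made as 20 strand-specific libraries of polyadenylated RNA. All groups carried the same kind of leukemia, a T-ALL with a conditional Acly allele, injected into the vein of sub-lethally irradiated mice. In the acute experiment, mice with overt leukemia were given corn oil (genotype Control, 6 libraries) or tamoxifen at 3 mg per mouse (genotype Acly deleted, 4 libraries), and their spleens were removed after 72 h. In the survival experiment, the same agents were given 48 h after transplantation and the spleen was collected when the humane endpoint was reached (Control, 5 libraries; Acly deleted, 5 libraries). Since controls received corn oil alone, tamoxifen and deletion of Acly cannot be told apart in either experiment. The sources used here give no Cre driver, no strain or age of the mice and no number of independent leukemias. No sort of leukemic cells is named, so each library holds RNA of the leukemia and of the host's own spleen cells, and more cells of a type cannot be told apart from more RNA per cell.

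The members belong to different families. Id3 is a helix-loop-helix protein without a DNA-binding region. It pairs with E proteins such as those encoded by Tcf3, Tcf4 and Tcf12 and keeps them off their E-box sites, and in thymocytes it is induced by T-cell receptor signalling through Egr factors. Scart1 is a cell-surface receptor with scavenger receptor cysteine-rich domains, known from gamma delta T cells. Evl is an Ena/VASP protein, a family that promotes the elongation of actin filaments. Abcc3 (also called MRP3) is an ATP-driven exporter of conjugated organic anions, and Khdc1a encodes a protein with a KH domain, a fold that can bind RNA, from a family best known from oocytes and early embryos.

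The stretch of DNA before the start of 2 members is shown because Id3 acts on E-box binding proteins and because Scart1 had the largest fold difference among the 196 genes. Each line gives the 250 bases before the RefSeq start site in build GRCm38.p6, 5′ to 3′ on the plus strand. Capitals mark the E-box CANNTG or the GC box GGGCGG, each searched on both strands.
Id3, chr4:136143572-136143821: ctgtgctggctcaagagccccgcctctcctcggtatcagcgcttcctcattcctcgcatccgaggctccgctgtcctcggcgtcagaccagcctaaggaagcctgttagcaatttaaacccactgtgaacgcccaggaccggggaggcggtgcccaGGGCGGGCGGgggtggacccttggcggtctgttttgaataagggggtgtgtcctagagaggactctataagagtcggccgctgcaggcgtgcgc
Scart1 (Cd163l1 in RefSeq), chr7:140218017-140218266: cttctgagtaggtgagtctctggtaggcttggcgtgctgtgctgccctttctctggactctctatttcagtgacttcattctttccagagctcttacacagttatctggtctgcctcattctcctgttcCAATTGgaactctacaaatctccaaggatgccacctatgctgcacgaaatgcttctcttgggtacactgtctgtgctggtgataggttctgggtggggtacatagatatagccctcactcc
The Id3 stretch held 2 overlapping GC boxes and no E-box, and its GC content was 62.8%. The Scart1 stretch held 1 E-box and no GC box, at 48.8% GC. Among 32851 RefSeq promoters of the same length, 66.2% held at least 1 E-box and 32.7% at least 1 GC box, and the median GC content was 52.4%. Of the members, 3 of 5 had an entry among these promoters, and Abcc3 and Khdc1a had none. Evl had 2 start sites there, with 3 GC boxes before one and 0 before the other, and 0 E-boxes before either.

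Khdc1a has a near-identical copy, which bears on how reads are assigned. In the GENCODE M21 transcripts, the coding sequences of Khdc1a and Khdc1c are each 498 bases long and differ by 1 substitution, T416C, with positions counted from the first base of the start codon, the Khdc1a base first and the Khdc1c base last. Bases 386 to 445 of both are given, with the differing base in capitals.
Khdc1a: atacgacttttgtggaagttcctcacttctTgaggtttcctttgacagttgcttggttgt
Khdc1c: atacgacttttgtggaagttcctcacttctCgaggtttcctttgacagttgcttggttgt
Of the 1957 windows of 31 bases in the Khdc1a transcript, 1147 (58.61%) also occurred in transcripts of other genes, 1084 of them in Khdc1c. Reads in these windows could be split between the copies, so the Khdc1a values are uncertain to that extent. Khdc1c itself was low as quantified, between 0 and 10.9 normalized counts in all 20 libraries. The sum of Khdc1a and Khdc1c was 472 ± 90.2 in survival controls and 988 ± 324 in survival knockouts (SD, n = 5 each), a sum that Khdc1a dominates and that therefore gives no separate support. Khdc1b has a shorter coding sequence of 378 bases, of which 354 (93.7%) were identical to Khdc1a in a global alignment, with 24 mismatches and 120 bases of Khdc1a in gaps. It stayed between 0 and 3.16 normalized counts in all 20 libraries. The windows of Id3, Scart1 and Abcc3 occurred in no other gene, and 248 of the 2896 windows of Evl (8.56%) were shared with Degs2, which overlaps it on the opposite strand. Degs2 was between 16.99 and 59.2 normalized counts in all libraries.

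Values below are the authors' normalized counts per library, which cannot be compared between genes because they are not scaled to transcript length. Acly, the targeted gene and ATP-citrate lyase, was lower in all knockouts. It fell in the acute spleens from 7735 ± 298 (SD, n = 6) to 5670 ± 766 (n = 4), with knockouts at 5226, 6228, 6402 and 4823 and every control at 7406 or above. At the survival endpoint controls were at 7922, 7758, 7396, 7544 and 8825 and knockouts at 4017, 2174, 3523, 3025 and 2718. The log2 fold change of Acly was -0.46 in the acute and -1.38 in the survival spleens. T-cell and thymocyte markers had a median of -0.30 in the acute spleens, with Cd3g at -0.45 and Rag1 at -0.62, and of 0.04 in survival. The part of the mix of cells in the acute fall of Acly was not tested.

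Id3, the inhibitor of E proteins, was measured at 669, 710, 696, 570 and 734 normalized counts in the 5 survival controls. The 5 survival knockouts were at 1049, 1085, 943, 986 and 887. The lowest knockout was 1.21 times the highest control, and the group means were 676 ± 63.5 and 990 ± 79.5 (SD, n = 5 each), a log2 fold change of 0.55. Both groups were tight, and they did not overlap, as the choice of genes required.

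In the acute spleens Id3 did not pass the test. Controls had a lowest value of 650, a median of 707 and a highest of 1049, and knockouts were at 813, 800, 850 and 763. The log2 fold change was 0.12 (SE 0.115, limma adjusted p = 0.474; exact two-sided permutation p = 0.414). All 4 knockouts lay above 5 of the 6 controls and below control 2, which at 1049 was the highest acute library. Without control 2 the log2 fold change was 0.22 and passed the threshold (limma adjusted p = 0.0188). With control 2 kept, Id3 passed only after scaling to the T-cell receptor beta genes Trbc1 and Trbc2 (0.49, limma adjusted p = 0.0155). Over 23 alternatives the adjusted p ran from 0.0155 to 0.89.

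Scart1, the scavenger-type receptor, had the largest difference in survival of the 196 genes. Survival controls were at 20.7, 12.6, 1.95, 44.6 and 4.72 normalized counts. Survival knockouts were at 320, 245, 108, 172 and 66.6. Means were 16.9 ± 17.1 and 182 ± 102 (SD, n = 5 each), a log2 fold change of 3.75 on the scale of log2(normalized count + 1). Values within a group spread widely, and the lowest knockout was still 1.49 times the highest control.

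Scart1 also rose in the acute knockouts. Acute controls had a lowest value of 7.16, a median of 13.9 and a highest of 25.2, and the knockouts were at 14.7, 317, 105 and 33.9. The log2 fold change was 2.24 (SE 0.691, limma adjusted p = 0.0276; exact two-sided permutation p = 0.0190, where 210 arrangements allow 0.00476 at the smallest). Of the 4 knockouts, 3 lay above all controls, while knockout 1 lay inside the control range. The rise rested on few libraries, with an adjusted p of 0.0803 without knockout 2, 0.0848 without knockout 3, 0.0504 without control 4 and 0.0552 without control 6. Over 22 alternatives it ran from 0.00338 to 0.669, and 16 of them kept the call.

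Evl, the actin regulator, was at 422, 420, 398, 367 and 489 normalized counts in survival controls. In survival knockouts it was at 623, 608, 544, 618 and 539. Means were 419 ± 44.9 and 587 ± 41.4 (SD, n = 5 each), a log2 fold change of 0.49, with the lowest knockout 1.10 times the highest control. Control 5 was the highest control and knockout 5 the lowest knockout.

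Acute Evl values overlapped almost fully. Controls had a lowest value of 358, a median of 412 and a highest of 467, and knockouts were at 389, 464, 363 and 360. The log2 fold change was -0.05 (SE 0.098, limma adjusted p = 0.725; exact two-sided permutation p = 0.6). No acute knockout lay outside the control range, and the sign turned with scaling to the T-cell receptor beta genes Trbc1 and Trbc2, which gave 0.32 (limma adjusted p = 0.0713, the lowest of 23 alternatives, which reached 0.939).

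Abcc3, the anion exporter, was at 61.8, 64.0, 80.2, 88.9 and 65.4 normalized counts in survival controls. The survival knockouts were at 116, 132, 115, 142 and 122. Means were 72.0 ± 11.9 and 125 ± 11.7 (SD, n = 5 each), a log2 fold change of 0.80, and the lowest knockout was 1.29 times the highest control. The spread was alike in the 2 groups, which did not overlap, as the choice of genes required.

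In the acute spleens Abcc3 rose, just past the threshold. Controls had a lowest value of 73.6, a median of 92.9 and a highest of 134, and knockouts were at 99.3, 189, 235 and 123. The log2 fold change was 0.66 (SE 0.235, limma adjusted p = 0.0493; exact two-sided permutation p = 0.0381). Knockouts 2 and 3 lay above all controls and the other two lay among them. Of 23 alternative analyses, 9 kept the call, and without any one of controls 1 to 5 or of knockouts 2 and 3 it was lost. The adjusted p ran from 0.0106 to 0.933 over these alternatives.

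Khdc1a, the KH domain gene, was at 426, 456, 392, 625 and 435 normalized counts in survival controls. Survival knockouts were at 1103, 1496, 851, 795 and 676. Means were 467 ± 91.3 and 984 ± 326 (SD, n = 5 each), a log2 fold change of 1.04. The lowest knockout was 1.08 times the highest control, the smallest gap of the 5 members, because control 4 stood above the other controls.

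Acute Khdc1a values missed the threshold narrowly. Controls had a lowest value of 273, a median of 307 and a highest of 406, and knockouts were at 315, 617, 471 and 416. The log2 fold change was 0.45 (SE 0.166, limma adjusted p = 0.0566; exact two-sided permutation p = 0.0381). Knockouts 2, 3 and 4 lay above all controls and knockout 1 lay among them, and without knockout 1 the log2 fold change was 0.61 and passed the threshold (limma adjusted p = 0.00783). That was the lowest adjusted p of 23 alternatives, which reached 0.941, and 5 of them passed.

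**Figure D1:**
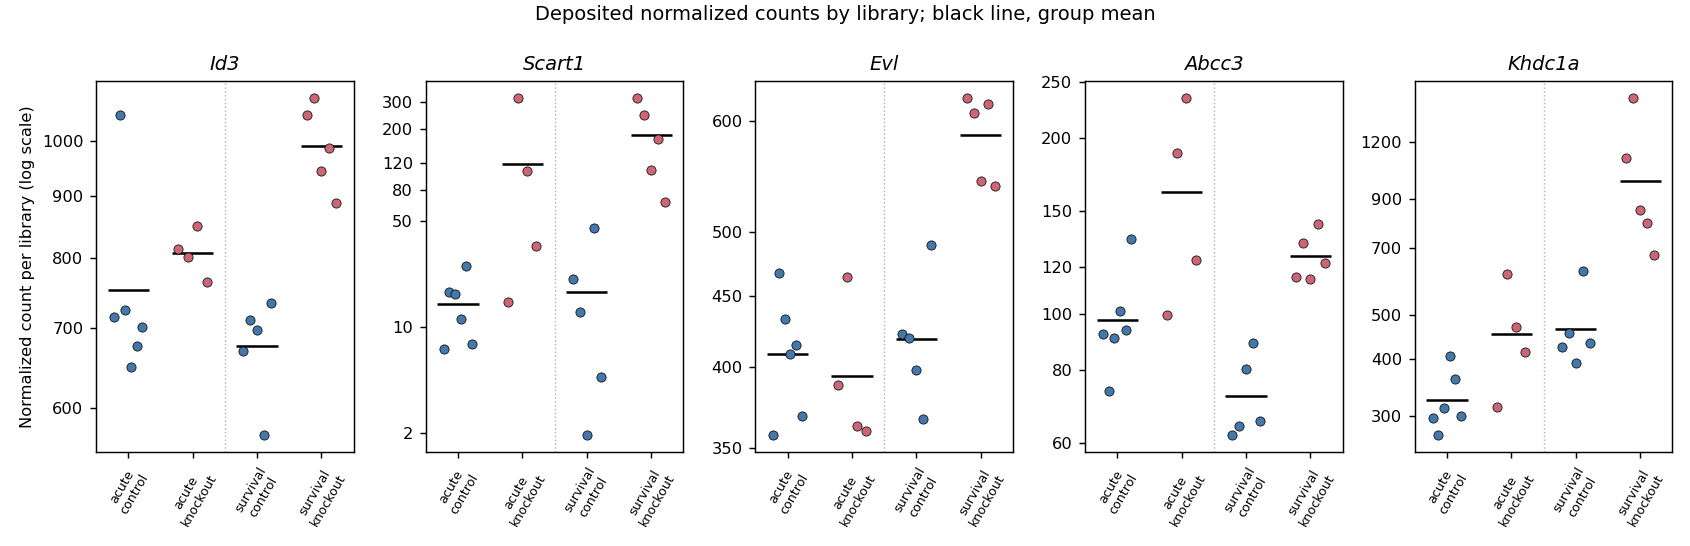
Normalized count of each member (log axis, 1 panel per gene) in every library of the 4 groups, with controls in blue, knockouts in red and a black line at the group mean. The 5 survival knockouts lie above the 5 survival controls in each panel, as the choice of genes required, while acute knockouts and controls overlap in all 5 panels.

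Across the acute table, limma called 5140 of 16363 genes (31.4%), of which 2731 (16.7%) were higher and 2409 (14.7%) lower in knockout. Of the members, 2 of 5 were called, Scart1 and Abcc3, both higher, a share too close to the background to say anything of these genes as a group. Groups did not overlap for 3708 acute genes (22.7%; 12.7% higher and 9.94% lower), and for 0 of the 5 members. In the survival table limma called 2 of 16136 genes (0.0124%, with 0.0062% in each direction), and neither was a member: Acly was lower and Ccnd1, cyclin D1, was higher (285 ± 31.4 against 757 ± 236, SD, n = 5 each; log2 fold change 1.35, limma adjusted p = 0.0323). At an unadjusted p under 0.05 the survival table had 1411 genes. Set side by side, the log2 fold changes in acute and survival spleens were 0.12 and 0.55 for Id3, 2.24 and 3.75 for Scart1, -0.05 and 0.49 for Evl, 0.66 and 0.80 for Abcc3, and 0.45 and 1.04 for Khdc1a. The survival value was the higher one in each case, but the members were chosen on it, so the difference between the experiments was not tested.

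**Figure D2:**
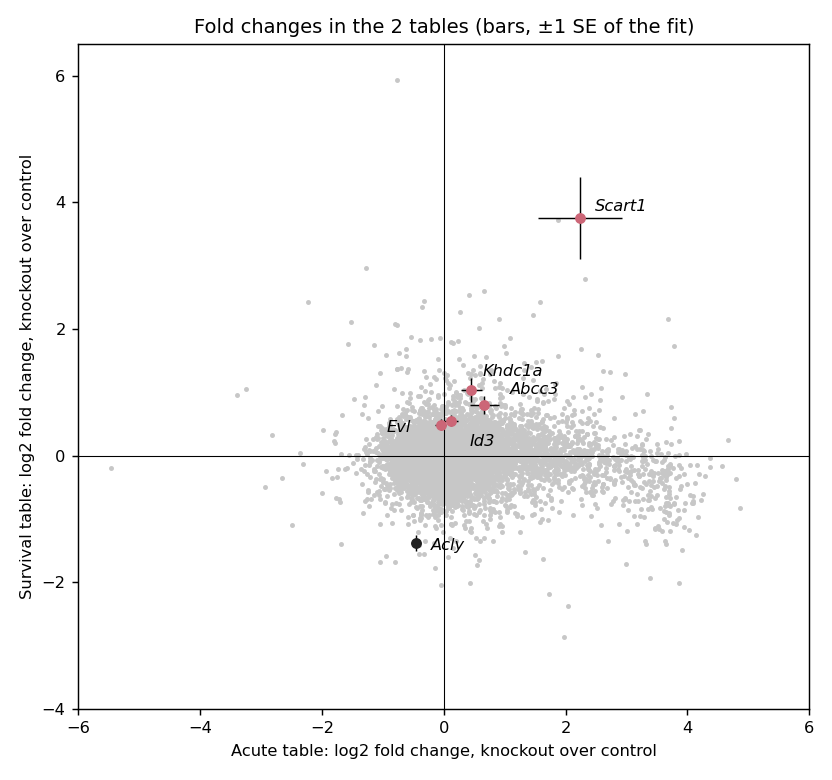
Log2 fold change of knockout over control in the acute table (x axis) against that in the survival table (y axis), with all genes tested in both in grey, the 5 members in red and Acly in black; bars are ±1 SE of the fit. Scart1 stands far from the other members, at 2.24 and 3.75, while Evl and Id3 lie close to 0 on the acute axis.

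Among the 196 genes that were higher without overlap, the members were not the top of one ranking. By fold difference Scart1 ranked 1, Khdc1a 21, Abcc3 35, Id3 60 and Evl 70. By the gap between the lowest knockout and the highest control Scart1 ranked 2, Abcc3 5, Id3 10, Evl 31 and Khdc1a 44. At the edge of the rule, Sirpa was just inside, with its lowest knockout at 504.5 and its highest control at 504.1 normalized counts. Cnn3 was just outside, with 857.87 against 857.94.

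Markers of several other cell types moved with the acute knockouts. An other-cell score, the mean log2 deviation over markers of all cell types except T cells, was between -1.03 and -0.25 in acute controls and between 0.41 and 1.57 in acute knockouts, without overlap. Neutrophil markers summed to between 12486 and 51217 normalized counts in acute controls and between 185612 and 627355 in knockouts, and 16 of 16 rose, Ltf by a log2 fold change of 4.02 (limma adjusted p = 3.84e-05) and Ngp by 3.71 (limma adjusted p = 4.47e-05). Monocyte and macrophage markers summed to between 5341 and 8546 in controls and between 23417 and 68007 in knockouts, and 16 of 16 rose, among them Ly6c2 (log2 fold change 4.17) and Lyz2 (3.70). NK and cytotoxic markers rose in 8 of 8 tested genes and B-cell markers in 11 of 12. Basophil and mast cell markers rose in 6 of 6, plasma cell markers in 4 of 6 and dendritic cell markers in 4 of 8. Fewer rose for megakaryocytes and platelets (2 of 6), stroma and endothelium (1 of 8) and erythroid cells (0 of 14). Of 25 T-cell and thymocyte markers, 19 fell and 0 rose, and their sum was between 299823 and 310078 in controls and between 202434 and 268236 in knockouts. No listed marker of these types was at 0 in all libraries. At the survival endpoint the score overlapped between groups, from -0.24 to 0.14 in controls and from -0.29 to 0.39 in knockouts, and limma called 0 markers of any list in either direction.

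At the survival endpoint 1411 of 16136 genes tested had an unadjusted p under 0.05. Some of the markers were among them, although limma called 0. They were 4 of 8 for stroma and endothelium (3 higher, 1 lower), 5 of 16 for monocytes and macrophages (all 5 higher), 5 of 12 for B cells (1 higher, 4 lower), 2 of 6 for plasma cells (both higher) and 4 of 24 for T cells (3 higher, 1 lower). Of the remaining lists, dendritic cells and erythroid cells had 1 higher each, NK and cytotoxic cells 1 lower, and neutrophils, basophils and megakaryocytes 0. The stroma and endothelium sum was between 4745 and 6268 normalized counts in survival controls and between 6016 and 8757 in knockouts, which overlapped. Pdgfrb, a receptor of perivascular and stromal cells, was between 2450 and 2861 in controls and between 2867 and 4568 in knockouts, without overlap (log2 fold change 0.45, limma adjusted p = 0.261). Pecam1, of endothelium, was at 0.15 and the collagen gene Col1a2 at 1.88 (limma adjusted p = 0.241), both with overlap. Pdgfrb and Pecam1 were the largest parts of the summed list, with means of 2157 and 1980 in acute controls. Other genes of the list were far lower there, with Col1a1 at 574, Cdh5 at 13.3 and Kdr at 9.68. Whether the RNA of Pdgfrb and Pecam1 came from stroma or endothelium was not tested. The part of any of these cell types in the members' survival values was not tested either.

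Within the acute knockouts, though not within the controls, 2 members followed the score. In the 4 acute knockouts the score was 0.413, 1.57, 1.33 and 0.773 in the order of replicates 1 to 4, and Scart1 and Khdc1a each ranked the libraries in that same order. Among the 6 controls Khdc1a was lowest, at 273, in control 2, which had the highest score, and highest, at 406, in control 4 (score -0.80). Scart1 was highest among controls, at 25.2, in control 5 (score -0.77). Abcc3 had its 2 highest values in the 2 libraries with the highest scores. With the score as a covariate no acute gene was called, and the log2 fold changes were -0.30 for Id3, -2.47 for Scart1, -0.44 for Evl, -0.38 for Abcc3 and -0.25 for Khdc1a. Since the score did not overlap between the acute groups, score and group cannot be told apart there. Without knockouts 2 and 3, which had the highest scores, the acute log2 fold change was 0.75 for Scart1 (limma adjusted p = 0.394), 0.20 for Abcc3 (limma adjusted p = 0.607) and 0.17 for Khdc1a. At the survival endpoint the score overlapped between groups, and the knockouts with its lowest and highest values, -0.29 and 0.39, were both above all controls for each member, as the choice of genes required. Its part in the acute values was not tested further.

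**Figure D3:**
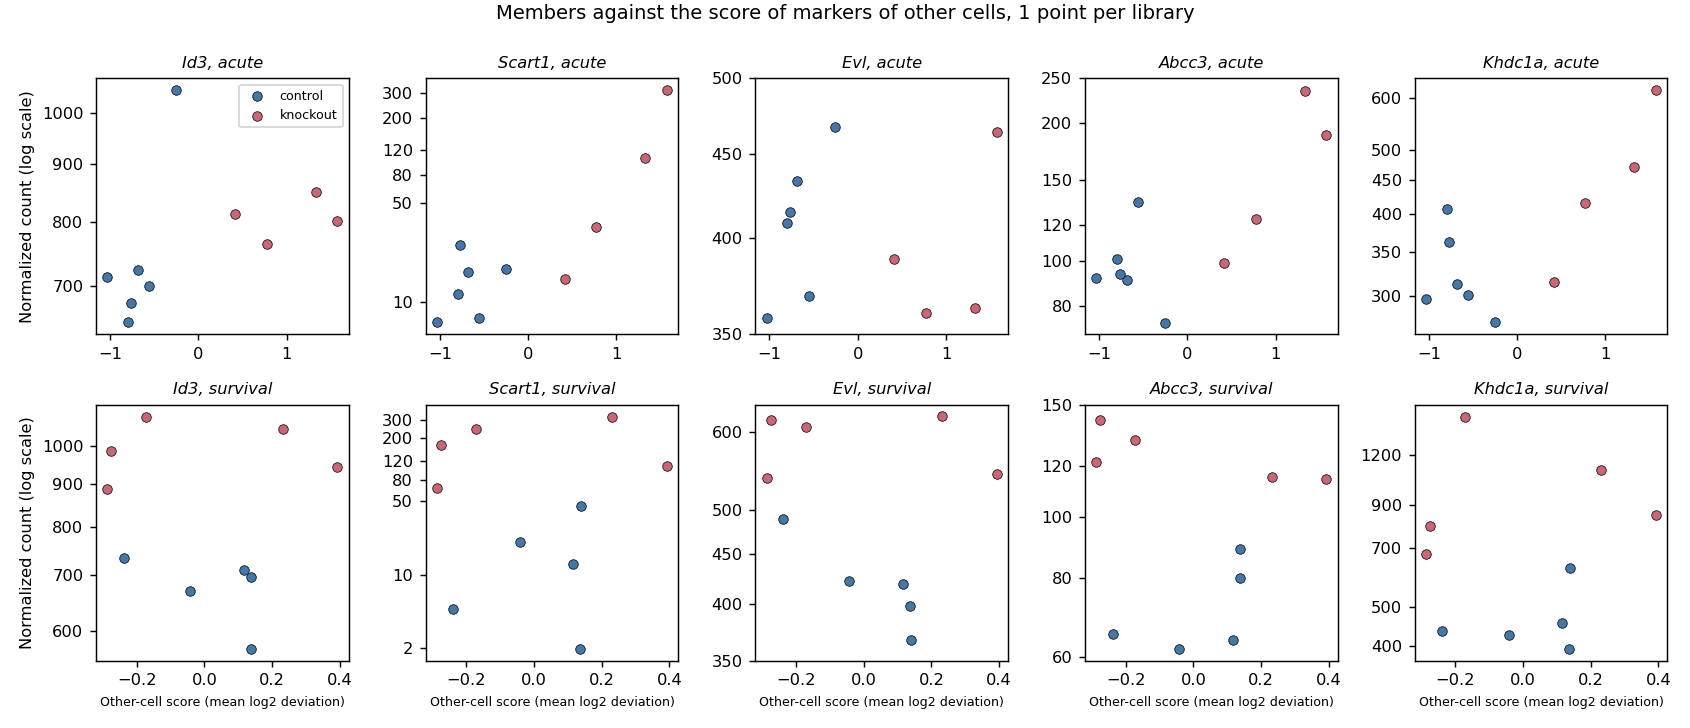
Normalized count of each member (log axis) against the other-cell score of the same library (mean log2 deviation of markers of cells other than T cells), acute libraries in the upper row and survival libraries in the lower row, controls blue and knockouts red. In the acute row the groups are apart on the x axis, from -0.25 down and from 0.41 up, and in the survival row they share its range.

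The family and pathway genes of Id3 were taken next, from lists that leave out the members. For these and the later lists, the background was 16.7% higher and 14.7% lower of all acute genes tested. In survival it was 1411 of 16136 genes at an unadjusted p under 0.05. Of 8 tested genes for Id and E proteins, 2 rose and 3 fell in the acute knockouts, and their median log2 fold change was -0.21 against -0.02 for all genes. Id2, another inhibitor of E proteins, rose (0.39, limma adjusted p = 0.0346), while Id1 fell (-0.38, limma adjusted p = 0.00826). Tcf12, an E protein, fell by 0.41 on the log2 scale (limma adjusted p = 0.00444), and Tcf4, another, fell by 0.28 (limma adjusted p = 0.0282), although scaling to Trbc1 and Trbc2 turned Tcf4 to 0.10. At the survival endpoint limma called 0 of 7 of these genes, with 1 at an unadjusted p under 0.05, and Id1 and Id2 were at -0.47 and 0.24.

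A list of early response genes held the Egr and Nr4a factors, Nab2 and the surface proteins Cd69 and Cd5. Of its genes, 4 of 9 rose and 0 fell in the acute knockouts. Egr1 (0.23, limma adjusted p = 0.191), Nr4a1 (0.23, limma adjusted p = 0.0901) and the other Nr4a factors tested were not called. Egr3 was between 18.5 and 34.3 normalized counts in acute controls and between 40.4 and 101 in knockouts, without overlap (log2 fold change 1.43, limma adjusted p = 0.00202). Egr2 (1.09), the activation marker Cd69 (1.19) and the Egr co-regulator Nab2 (0.33) rose as well. In the survival spleens 0 of 9 were called by limma and 4 had an unadjusted p under 0.05, with Egr3 at 1.396 and Nab2 at 0.61. The list's survival median was 0.33, against 0.01 for all genes.

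Genes of the BMP and TGF-beta response, another input to Id genes, rose in 5 of 16 cases and fell in 1 in the acute knockouts. Besides Id1 and Id2, Skil, a repressor of SMAD signalling, rose by 0.55 (limma adjusted p = 0.000717), and Smurf1, a ubiquitin ligase of the pathway, by 0.29 (limma adjusted p = 0.00967). Of 12 E protein target genes of thymocytes, 6 fell and 1 rose. Rag1, which cuts antigen receptor genes, was at -0.62 (limma adjusted p = 0.00031), and Ptcra, a chain of the pre-T-cell receptor, was also at -0.62 (limma adjusted p = 0.000615). Cd3g was at -0.45 and Dntt at -0.43. Several of these are T-cell markers, whose summed level fell in the same libraries. At the survival endpoint 0 of 15 and 0 of 12 of the genes on the 2 lists were called by limma, with 3 and 2 at an unadjusted p under 0.05, and Rag1 was at -0.10.

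Scart1 was set beside genes of gamma delta T cells and beside its domain family. Of 10 tested gamma delta genes, 8 rose and 1 fell in the acute knockouts, with a median of 1.59. Ccr2, a chemokine receptor that is also on the monocyte list, was at 4.36 (limma adjusted p = 3.84e-05). Cpa3, which is also on the basophil and mast cell list, was at 3.91 (limma adjusted p = 0.000635). The count and the median therefore include genes shared with other cell types. Il1r1 (1.61) and Maf (0.94) rose too. Trdc, the constant region of the delta receptor chain, fell slightly (-0.21, limma adjusted p = 0.0178) but turned to 0.17 when libraries were scaled to Trbc1 and Trbc2. In the survival spleens limma called 0 of 7, with 3 at an unadjusted p under 0.05, and Trdc was at -0.15 and Il1r1 at 1.498. The receptor chain itself was thus called higher in neither experiment as deposited.

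Of 9 genes with scavenger receptor cysteine-rich domains, 4 rose and 1 fell in the acute knockouts. Cd163, a macrophage receptor, rose by 0.88 (limma adjusted p = 0.00229), Ssc4d by 1.246 and Lgals3bp by 0.46. Cd6, a surface receptor of T cells, fell by 0.22 on the log2 scale. After scaling to Trbc1 and Trbc2 Cd6 was at 0.16, so its sign turned. Scart2, a related receptor, was between 0 and 6.66 normalized counts in acute controls and between 13.2 and 53.2 in acute knockouts. In the survival spleens Scart2 stayed low, between 0 and 11.2 in controls and between 5.50 and 14.8 in knockouts, with overlap. None of the 8 survival genes of the family was called by limma, with 2 at an unadjusted p under 0.05.

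Evl was not called in the acute spleens, while several of its partners were. Of 16 genes for Ena/VASP proteins and their partners, 9 rose and 1 fell, against 16.7% and 14.7% of all acute genes tested. Markers of several other cell types rose in the same libraries, and the part of the mix of cells in these values was not tested. Vasp, a paralog of Evl, was between 1614 and 1895 normalized counts in acute controls and between 3080 and 6443 in knockouts (log2 fold change 1.29, limma adjusted p = 0.000266). Enah, the other paralog, was at 0.03 (limma adjusted p = 0.925). Profilin Pfn1 (0.34), Wasf2 (0.24) and Apbb1ip (0.19), which link actin to signalling, rose, and the adaptor Fyb fell (-0.17, limma adjusted p = 0.0168; 0.21 and called higher after scaling to Trbc1 and Trbc2). In the survival spleens, where Evl was higher, limma called 0 of the 16 and 0 had an unadjusted p under 0.05. Vasp was at 0.01 and Enah at 0.09 there.

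Abcc3 was set beside other ABCC transporters and beside targets of NRF2, a regulator of the antioxidant response that is known to induce Abcc3. Of 6 other ABCC genes, 1 rose and 1 fell in the acute knockouts. Abcc1, the exporter MRP1, was between 99.5 and 159 normalized counts in controls and between 170 and 382 in knockouts (log2 fold change 1.074, limma adjusted p = 0.0035). Abcc5 fell by 0.20 (limma adjusted p = 0.0419; 0.18 after scaling to Trbc1 and Trbc2), and Abcc4 was at 0.42 (limma adjusted p = 0.0811). In the survival spleens limma called 0 of 5, with 2 at an unadjusted p under 0.05, and Abcc1 was at -0.01, Abcc4 at 0.24 and Abcc5 at -0.05. Of 12 NRF2 targets, 6 rose and 0 fell in the acute knockouts, against 16.7% and 14.7% of all acute genes tested. Among those that rose were G6pdx, which makes NADPH (1.69), the heme oxygenase Hmox1 (0.91), Gclm of glutathione synthesis (0.44) and Gsr (0.33). Hmox1 is also on the monocyte and macrophage list, where 16 of 16 rose. The part of the mix of cells in these values was not tested. Among survival libraries 0 of 12 were called by limma, 2 had an unadjusted p under 0.05, and the median was 0.12.

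For Khdc1a, 2 related KH domain genes reached the acute filter. Tdrkh, a protein of the piRNA pathway, fell by 0.43 on the log2 scale (limma adjusted p = 0.0423), and Khdc3, an oocyte gene, rose from 8.68 ± 3.72 (SD, n = 6) to 35.8 ± 16.8 normalized counts (SD, n = 4; log2 fold change 1.90, limma adjusted p = 0.00277). In the survival table the only one tested, Tdrkh, was at -0.16. Genes next to the members on their chromosomes were also read. Of 20 nearest tested genes, 2 on each side of each member, Rims1 beside Khdc1a was the only one whose survival groups did not overlap, and limma called 0 of 20 there. In the acute spleens limma called 6 of 20 neighbours (2 higher, 4 lower) and 3 did not overlap. Over all acute genes tested the shares were 31.4% and 22.7%, so these counts say nothing of the neighbours as a group. As deposited, the 3 without overlap were E2f2 (log2 fold change 0.48) and Rpl11 (-0.29) beside Id3 and Tram2 (0.89) beside Khdc1a, and the other called neighbours were Ccdc85c, Luc7l3 and Rsad1.

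The members varied among libraries in different ways. Deviations of log2 values from the group means were correlated over the 10 acute and, separately, the 10 survival libraries, as a description; libraries share the scaling and the mix of cells. Scart1 and Khdc1a went together in both (Pearson r 0.79 and 0.70), as did Id3 and Evl (0.45 and 0.82). The other 8 pairs were at most 0.63 over the acute and 0.28 over the survival libraries. Among 15672 genes tested in both tables, the 3 with the highest likeness, the smaller of the 2 correlations, were named for each member. Scart1 was most like Adgrg5, an adhesion-type receptor (0.82), Dusp6, a phosphatase of ERK (0.78), and Egr3 (0.75).

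Those 3 genes were themselves higher in acute knockouts, without overlap. Adgrg5 was between 7.86 and 15.998 normalized counts in acute controls and between 32.3 and 106 in knockouts (log2 fold change 2.32, limma adjusted p = 0.000406), and at the survival endpoint it was at 2.79 without being called (limma adjusted p = 0.354). Dusp6 was at 0.71 acutely and 0.49 in survival. Khdc1a was most like Atf6, a sensor of unfolded proteins (0.83), Etv5, an ETS factor (0.82), and Mcub, of the mitochondrial calcium uniporter (0.82). Etv5 rose from 107 ± 16.7 (SD, n = 6) to 313 ± 79.9 normalized counts (SD, n = 4) in the acute spleens (log2 fold change 1.52, limma adjusted p = 7.37e-05) and was at 1.48 in survival (limma adjusted p = 0.257). Atf6 was at 0.64 and 0.41.

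The other members had likenesses of other kinds. Id3 was most like Pno1 (0.82), Mta3 (0.82) and the small nucleolar RNA Snora57 (0.81), and Evl most like the proteasome subunit Psmc5 (0.84), Elob (0.84) and Rpp21 (0.82). For Abcc3 the closest were Ptdss2 (0.87), the hemoglobin gene Hba-a2 (0.85) and the macrophage complement gene C1qa (0.845). Hba-a2 marks red cells and C1qa macrophages, cells of the host spleen. C1qa rose in the acute knockouts (log2 fold change 1.00, limma adjusted p = 0.00264) and was at 0.35 in survival (limma adjusted p = 0.447), and Hba-a2 was at 0.35 and 0.58, not called in either.

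**Figure D4:**
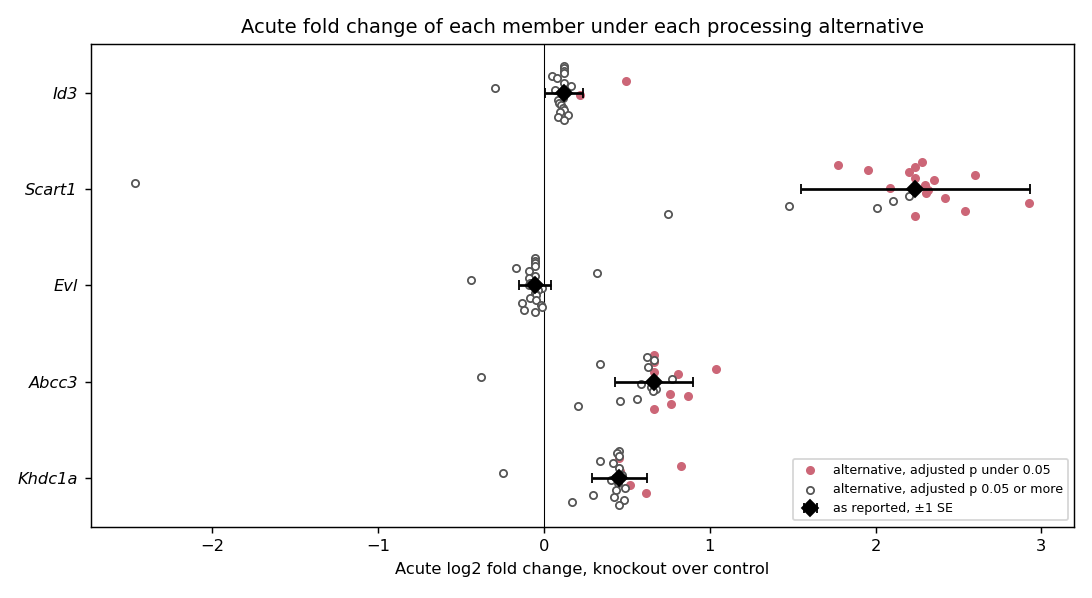
Acute log2 fold change of each member as reported (black diamond, ±1 SE) and under each processing alternative (red where the adjusted p was under 0.05, open where not). Scart1 stays above 0 in all but 1 alternative, the other-cell score as a covariate, and Evl lies near 0 in most.

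Scaling moved the acute fold changes of all genes together. Scaling to Trbc1 and Trbc2 moved the median log2 fold change of all acute genes from -0.02 to 0.35. Less that median, the members were at 0.15 (Id3), 2.25 (Scart1), -0.03 (Evl), 0.69 (Abcc3) and 0.48 (Khdc1a), against 0.14, 2.26, -0.03, 0.69 and 0.48 as deposited. Under quantile normalization, where the median of all genes was -0.14, Abcc3 less the median was at 0.47 and Scart1 at 2.09. The acute calls split into 2731 higher and 2409 lower as deposited, 7355 and 94 after scaling to Trbc1 and Trbc2, and 2318 and 4145 after quantile normalization.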

How the data were processed

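Each of the 2 tables deposited by the authors holds, per gene and library, a signal of normalized counts. Per the submitters' processing notes, kallisto 0.46.0, the build GRCm39 and DESeq were used. The annotation, gene-level summing and filters were not given in the sources used here. The values are not whole reads and each table was scaled alone, so no count model was used and the depth per library is unknown; totals of the deposited values were 19432235 to 20731983 in the acute and 19998354 to 21623571 in the survival table. Groups come from the labels.

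Genes reaching a normalized count of 10 in at least 4 acute or 5 survival libraries were tested on log2(normalized count + 1) with limma 3.58.1 in R 4.3.3 (lmFit, eBayes with a mean-variance trend), Benjamini-Hochberg over all genes tested, called at an adjusted p under 0.05. The fold change understates that of low genes. For the members, mean acute log2 values were set against all 210 arrangements of the libraries (exact permutation test, two-sided). The labels do not say outright that libraries are separate mice. The p-values set group differences against the spread between libraries within groups, and that spread may be technical. No 2 libraries held identical values.

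The members, gene lists and tests were chosen with earlier results of these data known. Named were the members, Acly, up to 4 called genes per list by mean level, the paralogs Id1, Id2, Vasp, Enah, Abcc1, Abcc4, Abcc5, Khdc1b and Khdc1c, the 3 genes most like each member, and 2 markers of each list summed (for the T-cell list Tcf7 and Thy1, at log2 fold changes of -0.30 and -0.31 in the acute table). Ccnd1, Sirpa, Cnn3, Scart2, Degs2, Col1a2, Rims1 and the other neighbours were named after their values were seen. So were Egr1, Nr4a1, Cd5, Cpa3, Col1a1, Cdh5 and Kdr. Sequences are from RefSeq (GRCm38.p6) and GENCODE M21, a build other than that of the tables, so no other coordinates are given. Alternatives changed the pseudocount, filter, scaling, model, replicate block, covariate and libraries. Figures used Python 3.11.15, matplotlib 3.10.9, pandas 2.3.3 and numpy 2.4.6.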

Additional observations from a re-analysis of the deposited data

Results flagged for a closer look

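Of 20 groups of member values examined (5 genes in 4 groups), 2 held a library far from the rest, and chance alone puts about 1 in 20 groups past this limit. Id3 in acute control 2 was at 1049 normalized counts, against 724 in the next highest control, a gap of 0.814 of the group's range. Khdc1a in survival control 4 was at 625, against 456 in the next highest control, a gap of 0.723 of the range. The same survival control had the highest values of Scart1 (44.6) and Abcc3 (88.9) among survival controls and the lowest of Id3 (570) and Evl (367).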

How the results depend on the processing

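The survival log2 fold changes, whose sign the choice of members fixes and which are therefore no sign of stability, ran from 0.47 to 0.59 for Id3, 2.87 to 4.24 for Scart1, 0.40 to 0.54 for Evl, 0.72 to 0.88 for Abcc3 and 0.87 to 1.16 for Khdc1a. Replicate numbers did not pair libraries: deviations of same-numbered libraries correlated at -0.066 to 0.142 (acute, 1 of 4 closest to its own number) and -0.020 to 0.128 (survival, 0 of 5). With a replicate block 3294 acute genes were called (2108 higher, 1186 lower) and Abcc3 was at 0.77, no longer called. Depth is unknown, so no limit from counting can be given. The cause of the shifts below was not tested.

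Abcc3 also lost its call with a pseudocount of 10 (0.62), no filter (0.66), quantile normalization (0.34) and upper quartile scaling (0.62). Id3 passed with scaling to Trbc1 and Trbc2 (0.49), and Khdc1a passed with it (0.83), with a minimum of 50 (0.45) and with array weights (0.46). A minimum of 50 left Scart1 untested. Leaving out 1 library at a time gave 0.081 to 0.22 for Id3, 1.48 to 2.93 for Scart1, -0.14 to -0.014 for Evl, 0.46 to 0.87 for Abcc3 and 0.29 to 0.61 for Khdc1a, with 3693 to 5444 acute genes called and 3920 to 5081 without overlap, against 3708. Without acute knockouts 2 and 3 the values were 2137 genes called (1414 higher, 723 lower), 0.75 for Scart1, 0.20 for Abcc3 and 0.17 for Khdc1a. Survival calls numbered 6 with a pseudocount of 10, 4 with a minimum of 50 or robust variances, 11 with array weights, 1 with Trbc scaling or the covariate, 29 in 1 fit over all 20 libraries, and 1 to 24 without 1 library; 384 to 589 genes then had no overlap.

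Acute signs turned in 56 cases over 36 genes. With the other-cell score as a covariate 0 genes were called, and Id3 was at -0.30, Scart1 -2.47, Abcc3 -0.38, Khdc1a -0.25, Tcf12 0.18, Tcf4 0.13, Id2 -0.26, Cd69 -0.22, Egr3 -0.19, Egr2 -0.064, Maf -0.095, Lgals3bp -0.17, Pfn1 -0.20, Fyb 0.019, Gsr -0.072, Hmox1 -0.24, Gclm -0.50, Tdrkh 0.070, Khdc3 -0.24, Abcc4 -0.54, Dusp6 -0.23, Ptdss2 -0.64, Hba-a2 -1.35, Atf6 -0.16 and Mcub -0.22. With Trbc scaling Evl was at 0.32, Tcf4 0.10, Trdc 0.17, Cd6 0.16, Fyb 0.21, Abcc5 0.18, Pno1 0.084, Mta3 0.20, Snora57 0.32, Psmc5 0.28, Elob 0.22 and Rpp21 0.19. Quantile normalization gave Enah -0.27, Ptdss2 -0.076 and Mcub -0.18, upper quartile scaling Enah -0.0047 and Ptdss2 -0.02, and array weights Enah -0.047. Without knockouts 2 and 3, Snora57 was at 0.042, Ptdss2 -0.24, Hba-a2 -0.38 and Mcub -0.0075. Leaving out 1 library gave -0.056 to 0.12 for Enah, -0.13 to 0.066 for Snora57 and -0.069 to 0.11 for Ptdss2.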
